A study of Mus musculus with 6 samples.

Results

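The comparison described here set the rostral forebrain of Fezf1-/- Fezf2-/- double knockout mouse embryos against that of wild-type embryos at embryonic day 10.5 (E10.5). It rests on 2 of the 6 arrays of the study, 1 of each genotype at this age, chosen by what their labels give as genotype and age. The other 4 arrays hold both genotypes at E9.5 and E12.5, and they enter below only where they place an E10.5 difference. The part of the forebrain that reaches back to the end of the lateral ventricles was cut out by hand, and its total RNA was hybridised to Affymetrix mouse arrays. The labels write both alleles as -/- and name no Cre driver, and they give no strain, no sex, no number of embryos in an array and no stage finer than the embryonic day.

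Fezf1 and Fezf2 encode closely related zinc-finger repressors that are active in the front of the neural plate and, later, in progenitors of the telencephalon. The dorsal telencephalon gives rise to the cortex: its progenitors carry regulators such as Emx2, Lhx2 and Pax6, and neurons form from them by way of the proneural factor Neurog2, the intermediate-progenitor factor Eomes and the neuronal factor Tbr1. Hes5, a repressor switched on by Notch signalling, keeps progenitors from forming neurons by holding proneural genes down.

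Differences are knockout minus wild type on the scale log2(signal + 6.50) after quantile normalization of the 6 arrays. On this scale a difference of 1 is 2-fold and one of 0.58 is 1.5-fold, and the change of a dim gene is understated. Of 18194 genes with a probe set of their own, 7481 (41.1%) had a normalized signal over 100 in at least 1 of the E10.5 arrays, and counts below are over these unless said otherwise. A gene near the limit can pass it through the array where it is higher alone, which shapes such counts. There is no replicate at this age. The only error at hand is the disagreement between probe sets of the same gene, whose differences varied with an SD of 0.20 over 2706 genes with several probe sets over the limit. That spread is technical and says nothing of how embryos vary, so nothing below was tested and every value describes this pair of arrays.

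The targeted genes were examined first. Fezf2 had a wild-type signal of 146 against 0.904 in the knockout, a difference of -4.36. Fezf1 had a wild-type signal of 143 against 78.4 in the knockout, a difference of -0.82, so signal for this gene was still present in the knockout array. Each has 1 probe set, and whether it lies inside the deleted part of the gene is not given in the sources used here.

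Among the largest differences, Eomes, Neurog2, Dcx, Emx2 and Lhx2, genes of cortical progenitors and neurons, were lower in the knockout, and Hes5, Aldh1a3 and Lin28a were higher, beside genes of other kinds in both directions. In tissue of this kind fewer cells of a type and less RNA of a gene in each cell cannot be told apart. At least 2-fold higher in the knockout were 8 genes (0.107% of 7481) and at least 2-fold lower were 18 (0.241%). At 1.5-fold the counts were 68 higher (0.909%) and 134 lower (1.79%), and these shares are the background for the list counts below. By direction alone, whatever their signal, 8748 of 18194 genes were higher and 9433 lower. The excess of 2-fold calls on the lower side turned on the values as deposited, without further scaling. There the median of all genes was 0.30 and the 2-fold counts were 27 higher and 6 lower. The share of 2-fold calls that were higher was 30.8% with the scaling used here. It was 32.3% with a common trimmed mean and 34.8% with quantile normalization of the 2 E10.5 arrays alone. Relative to the median of all genes, each list median below that exceeds 0.20 in size had the same direction under the 3 other scalings tried. For comparison, the 1.5-fold counts were 77 higher and 56 lower at E9.5 and 79 higher and 84 lower at E12.5. The standard deviation of the differences was 0.25 at this age, with the 1st percentile at -0.69 and the 99th at 0.58.

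**Figure D1:**
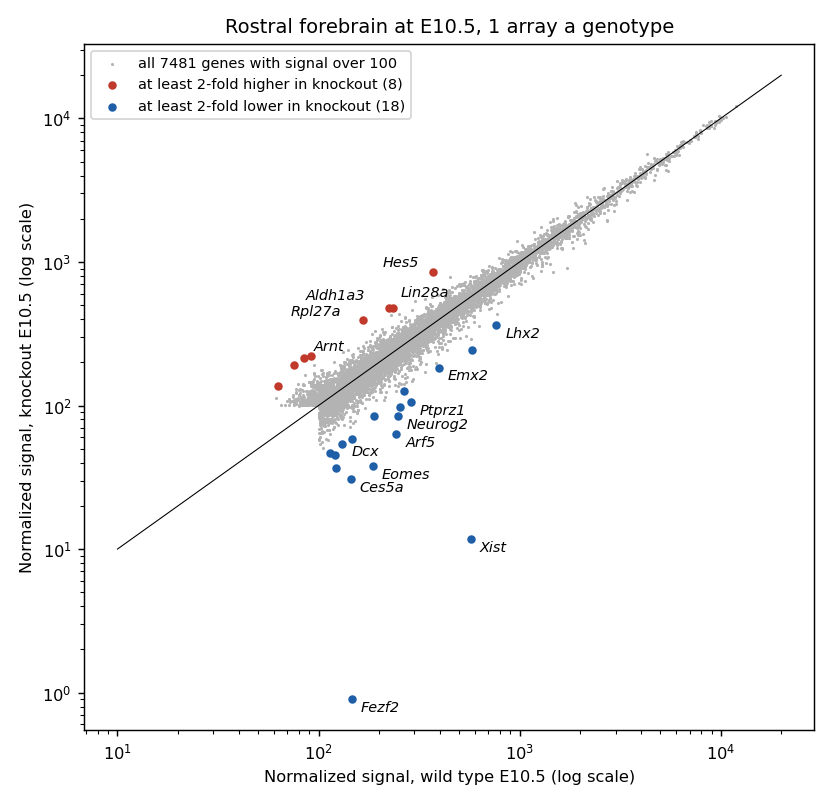
Normalized signal of each gene in the wild-type (horizontal) and knockout (vertical) array at E10.5, both on log scales, with 1 point per gene and the line of equal signal. Grey points are the 7481 genes with signal over 100 in either array, and the 8 genes at least 2-fold higher (red) and 18 at least 2-fold lower (blue) in the knockout lie off the band that holds most genes.

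Hes5 had a wild-type signal of 371 against 848 in the knockout, a difference of 1.18. It was the only member of the Notch list past 1.5-fold. Its second probe set gave 0.59. In wild type Hes5 signal ran from 206 at E9.5 through 371 to 968 at E12.5, while in the knockout it was 679, 848 and 840, so the knockout array at E10.5 was already near the wild-type level of E12.5. The study of these mice is known for Hes5, and its direction here was known beforehand.

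The bases before the Hes5 start are shown because this promoter is the place where Notch signalling reaches the gene, and those of Neurog2 because its difference was the opposite. Both are the 250 bases before the annotated start in RefSeq (GRCm38.p6), 5′ to 3′ in the direction of the gene: chr4:154960673-154960922, plus strand, for Hes5 and chr3:127632886-127633135, plus strand, for Neurog2. Capitals mark TGGGAA, or TTCCCA where it lies on the other strand, the core of the motif bound by RBPJ, the DNA-binding partner of Notch.
Hes5: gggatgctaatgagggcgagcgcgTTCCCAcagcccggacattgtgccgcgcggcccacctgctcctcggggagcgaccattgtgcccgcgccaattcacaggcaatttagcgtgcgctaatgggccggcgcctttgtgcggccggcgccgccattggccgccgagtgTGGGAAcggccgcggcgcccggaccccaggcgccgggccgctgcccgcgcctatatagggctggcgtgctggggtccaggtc
Neurog2: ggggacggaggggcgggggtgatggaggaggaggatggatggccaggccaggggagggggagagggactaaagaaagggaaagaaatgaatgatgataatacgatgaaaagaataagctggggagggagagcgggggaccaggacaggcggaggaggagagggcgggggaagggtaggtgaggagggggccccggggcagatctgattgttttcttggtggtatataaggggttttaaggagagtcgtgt
The Hes5 window holds 2 matches, which begin 226 and 82 bases before the start, and the Neurog2 window holds 0. The motif is common: it is in 21.6% of 32851 promoter windows of this length, and 2.77% hold it at least 2 times. Among windows of genes at least 1.5-fold higher it was in 19.8% of 81, and among those at least 1.5-fold lower in 17.3% of 150, close to the 19.0% of windows of all genes over the signal limit. A match is a run of letters and not a measured binding site.

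The rest of the Notch pathway did not share the size of the Hes5 difference. Of 26 measured members, 16 were over the signal limit, 5 higher and 11 lower, with a median of -0.13 against -0.01 for all genes. Receptors were split, with Notch2 at 0.45, Notch1 at -0.12 and Notch3 at -0.07. The second Notch3 probe set, also over the limit, gave 0.37. That of Notch2, far under the limit, gave -1.06, and that of Notch1 gave -0.24. The ligand gene Dll1, which newborn neurons show to their neighbours, was 210 in wild type and 161 in the knockout (-0.37). The ligand gene Jag1 was 296 and 370 (0.32), but its other probe sets, under the limit, gave -0.34 and -0.70. Other genes that Notch signalling switches on lay on the lower side: Nrarp, a feedback inhibitor of the pathway, was 541 and 386 (-0.48), Hey1 was 244 and 210 (-0.21) and Hes1 127 and 115 (-0.13). Hes3, a Hes gene of early neuroepithelium, had a wild-type signal of 0.511 against 19.7 in the knockout, both far below the limit.

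Regulators of the dorsal telencephalon were lower in the knockout as a group. Of 19 measured members 16 were over the limit, of which 15 were lower, 7 of them at least 1.5-fold, with a median of -0.55. This list contains the targeted genes. Without Fezf1 and Fezf2, 13 of 14 were lower, 5 at least 1.5-fold, with a median of -0.47. Over all 19 measured members, whatever their signal, 18 were lower and the median was -0.58, against -0.01 for all 18194 genes.

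Emx2, a homeobox gene that patterns the cortex, had a wild-type signal of 395 against 183 in the knockout (-1.08). Lhx2, a LIM-homeobox gene that selects cortical identity, had 766 and 364 (-1.06). Both were lower by about the same amount, from levels well over the limit. Emx2 was 415 in wild type and 407 in the knockout at E9.5, and 556 and 451 at E12.5, so its E10.5 knockout signal was the lowest of its 6 values. Lhx2 was lower in the knockout at all 3 ages, by a log2 difference of 0.68 at E9.5 and of 0.18 at E12.5. The transcription factor Tfap2c had 295 and 152 (-0.93; other probe sets -1.06 and -0.47), and Id4, an inhibitor of bHLH factors, had 1721 and 914 (-0.91; other probe sets -1.09 and -0.92). For these last genes every probe set lay on the same side. Emx1, with 73.9 and 13.9 (-1.98), and Dmrta1, with 94.8 and 36.2 (-1.25), were below the signal limit.

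Not all dorsal regulators stood apart. Pax6, which defines cortical progenitors, had 398 in wild type and 294 in the knockout (-0.43), and its second probe set gave -0.01. Gli3, the transcription factor through which hedgehog signals are held back dorsally, had 710 and 690 (-0.04), and Dmrt3 had 126 and 119 (-0.09). Nr2f2, an orphan receptor gene, had 255 and 276 and was the one member over the limit on the higher side (0.12), although its second probe set gave -0.26. Only some of the list has a second probe set over the limit, and over those 7 genes the median was -0.27 relative to all genes.

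Among the factors that lead to cortical neurons, Neurog2, Eomes and Tbr1 were lower in the knockout and Neurod1 was not. Neurog2 had a wild-type signal of 247 against 84.6 in the knockout (-1.48). Eomes, which marks intermediate progenitors, had 186 and 37.8 (-2.12; second probe set -1.82). Neurog2 and Eomes passed the signal limit through the wild-type array alone. Tbr1, the factor of the first cortical neurons, had 63.7 and 3.99 (-2.74), under the signal limit in both arrays. The Tbr1 knockout signal is smaller than the pseudocount, so the size of its difference depends on the pseudocount. Slc17a6, a vesicular glutamate transporter gene, had 50.3 and 7.20, also under the limit. Of the 21 measured genes of this list, 10 were over the limit, 7 of them lower and 5 at least 1.5-fold lower, with a median of -0.61. Over all 21 the median was -0.37, with 13 lower.

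Neurod1, a factor of differentiating neurons that acts between Eomes and Tbr1 and that placodal neurons also carry, had 121 in wild type and 175 in the knockout (0.51), although its second probe set gave -0.26. Insm1, which drives the formation of basal progenitors, had 269 and 156 (-0.76), Gadd45g 287 and 177 (-0.68) and Neurog1 182 and 124 (-0.54). At E9.5 the median of the list was 0.35 and at E12.5 it was 0.08. Neurog2 gave -0.17 and -0.25 at these ages, and Eomes -0.60 and -0.50. The signal limit was not applied at these ages, and Eomes was far under it at E9.5.

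General neuronal genes were lower too. Of 24 members over the limit 22 were lower, 16 at least 1.5-fold, with a median of -0.64 and a range from -1.18 to 0.03. Over all 37 measured members 33 were lower, with a median of -0.55. The summed signal of the 37 genes was 6747 in wild type and 4532 in the knockout. The largest differences were those of Dcx, a microtubule-associated protein gene of migrating neurons, with 131 and 54.3 (-1.18; the second-brightest probe set gave -0.81), and of Rtn1, a reticulon gene, with 189 and 84.6 (-1.10). Tubb3, the neuronal tubulin gene, had 542 and 306 (-0.81) and Stmn2, a microtubule regulator gene of growing axons, 343 and 195 (-0.80; second probe set -0.57). The RNA-binding protein gene Elavl3 had 144 and 82.7 (-0.75) and Map2 306 and 185 (-0.71). Dcx, Rtn1 and Elavl3 passed the limit through the wild-type array alone. Dpysl5 and Nefm, at 0.03 each, were the only members over the limit that were not lower.

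The other ages did not show this. Tubb3 differed by 0.01 at E9.5 and by 0.01 at E12.5, Dcx by 0.46 and -0.11, and the list as a whole had a median of 0.09 at E9.5 and -0.05 at E12.5. Whether the difference between ages exceeds the variation between embryos was not tested.

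**Figure D2:**
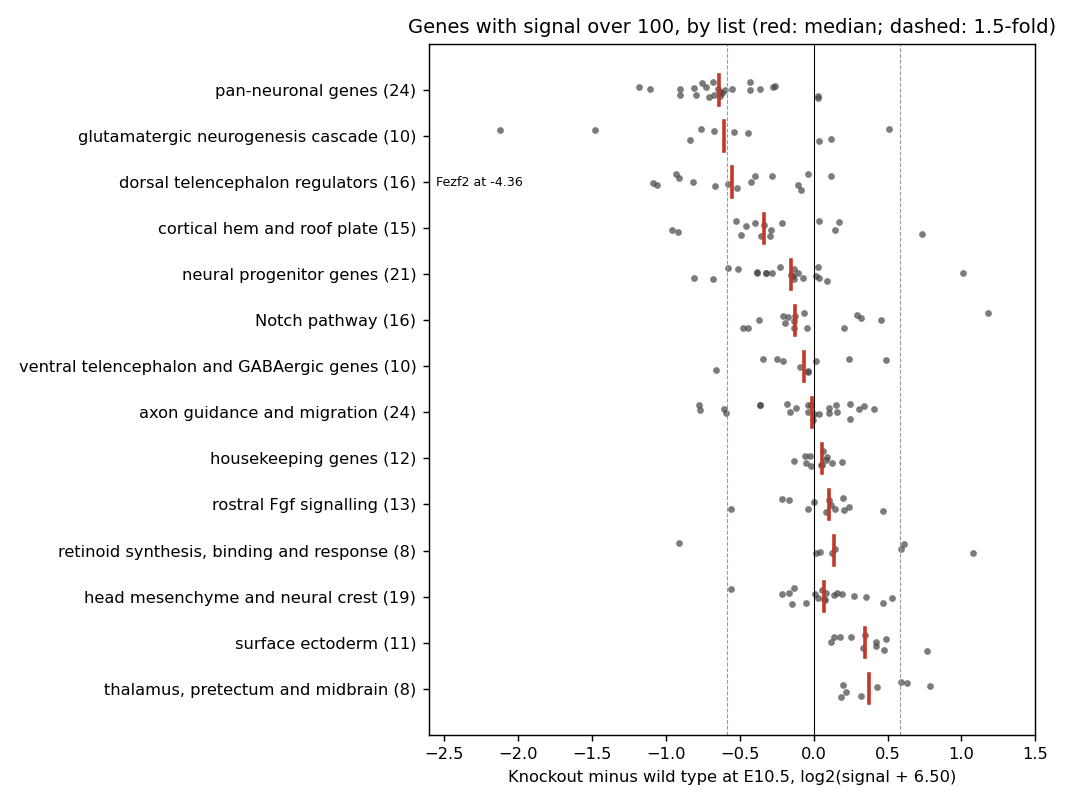
Knockout minus wild-type difference at E10.5 (horizontal, log2 scale) of each gene with signal over 100, for 14 of the gene lists, with the number of such genes in brackets, the list median in red and 1.5-fold as dashed lines. Pan-neuronal genes (median -0.64) and dorsal regulators (median -0.55) lie mostly left of 0, and surface ectoderm (0.35) and thalamic, pretectal and midbrain genes (0.37) right of it.

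Markers of neurons born early gave no common direction. In the list of Cajal-Retzius and other early-born neurons only 4 of 16 measured genes were over the limit, with a median of -0.01. Calb2, which encodes calretinin, had 51.3 in wild type and 5.22 in the knockout (-2.30), and Reln, the signal secreted by Cajal-Retzius cells, had 74.0 and 78.1 (0.07). Both are under the limit.

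Ventral telencephalic and GABAergic genes were nearly level at this age. Of 10 members over the limit 3 were higher and 7 lower, with a median of -0.07. The homeobox genes Dlx1, Dlx2 and Dlx5, which specify GABAergic neurons, gave -0.25, -0.04 and -0.34, and Lhx8 gave 0.02. Isl1, a LIM-homeobox gene of striatal and other neurons, had 130 and 185 (0.49), and Zfp503 had 467 and 294 (-0.66; second probe set 0.00). Genes of hedgehog signalling were level as well, with Ptch1 at -0.01 and Shh at -0.06 in a list whose median was -0.01.

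Of 21 progenitor genes over the limit 16 were lower and 5 higher, with a median of -0.15. Pou3f3, a POU-domain gene of forebrain progenitors, had 771 in wild type and 437 in the knockout (-0.81), and Fabp7, a fatty-acid-binding protein gene of radial glia, had 1166 and 779 (-0.58). Sox2, which maintains neural progenitors, had 2006 and 1538 (-0.38) and Vim 4659 and 3729 (-0.32). The largest difference on the higher side was that of Lin28a, an RNA-binding protein gene of the early neuroepithelium that is shut off as development proceeds, with 235 and 479 (1.01; second probe set 1.17). In wild type Lin28a signal was 1788 at E9.5 and 10 at E12.5, so its knockout level at E10.5 lay on the younger side. Hmga2, another gene of young progenitors, was 2439 and 2593 (0.09), while its other probe sets over the limit gave -0.24 and -0.37.

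Genes of proliferation were close to level. S-phase genes had a median of 0.03 and the G2 and M-phase list one of 0.04, with no member past 1.5-fold in either, and Mki67, the proliferation antigen gene, had 1530 and 2020 (0.40). Genes of cell cycle exit leaned lower, with 7 of 9 over the limit lower and a median of -0.18. Over all 13 measured members 9 were lower and 4 higher, with a median of -0.18. The largest difference was that of Cdkn1a, a Cdk inhibitor gene, with 105 and 56.0 (-0.83). Cdkn1a passed the limit through the wild-type array alone.

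Signals of the dorsal midline were unequal. In the cortical hem and roof plate list 11 of 15 members over the limit were lower, with a median of -0.34. Over all 27 measured members 17 were lower and 10 higher, with a median of -0.21. Rspo3, which strengthens Wnt signalling, had 337 and 170 (-0.96), and Wnt8b, a Wnt gene of the cortical hem, 148 and 75.4 (-0.92; second probe set, far under the limit, 0.21). Wnt8b passed the limit through the wild-type array alone. Bmp4, a roof plate signal that the surface ectoderm also makes, had 119 and 201 (0.73). Axin2, a feedback target of Wnt signalling, had 158 and 179 (0.17), while Lef1 had 188 and 145 (-0.36). With second-brightest probe sets over the limit, 4 genes, the list median was -0.09 relative to all genes.

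Thalamic, pretectal and midbrain genes were higher. All 8 members over the limit were higher, 3 of them at least 1.5-fold, with a median of 0.37. Dbx1, a homeobox gene of progenitors, had 95.4 in wild type and 170 in the knockout (0.79), so it passed the limit through the knockout array alone. Otx2, the homeobox gene of forebrain and midbrain, had 416 and 649 (0.63) and Pax3, a paired-box gene of the dorsal neural tube, 105 and 161 (0.59; other probe sets 0.29 and 0.16). Irx3 and Pax7 followed with 0.32 and 0.43. Most of the list was dim at this age: over all 23 measured members 16 were higher with a median of 0.20, and those under the limit included Olig3 with 31 and 1.69. The list median was 0.24 at E9.5 and 1.48 at E12.5. With second-brightest probe sets the direction was not kept: over the 3 genes that have one over the limit the median was -0.05 relative to all genes. The position of the dissection cut was not recorded for single embryos in the labels, and its part in these differences was not tested.

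The retinoid genes divided by member. Aldh1a3, which makes retinoic acid in the frontonasal region and eye, had 225 in wild type and 482 in the knockout (1.08; other probe sets 1.18 and 0.63). Rarb, a retinoic acid receptor gene that retinoic acid itself induces, had 203 and 308 (0.59), and the receptor gene Rxra 74.8 and 118 (0.61). Aldh1a1, another synthesis enzyme, had 211 and 109 (-0.91). Of 8 members over the limit 7 were higher, with a median of 0.13. Rxra passed the limit through the knockout array alone. Over all 16 measured members 12 were higher, with a median of 0.06. Rarb is also a neighbour of Fezf2 on its chromosome, as given below.

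Fgf genes gave no common shift, with 9 of 13 higher and a median of 0.10. Fgf15, a forebrain Fgf, had 186 and 261 (0.47), Fgfr3 had 211 and 141 (-0.56) and the feedback inhibitor genes Spry1 and Spry2 gave 0.10 and 0.15. Axon guidance genes had a median of -0.01, with 4 of 24 at least 1.5-fold lower: the ephrin receptor genes Epha3 (394 and 228, -0.77) and Epha4 (320 and 210, -0.59), the ephrin gene Efnb1 (217 and 124, -0.77) and the neurotrophin receptor gene Ntrk2 (202 and 131, -0.60). Both other Efnb1 probe sets were lower too, by 0.87 and 0.92 on the log2 scale. Second probe sets over the limit gave -0.90 for Epha3 and only -0.20 for Epha4. That of Ntrk2, under the limit, gave -0.30.

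Tissue around the forebrain was also represented. All 11 surface ectoderm genes over the limit were higher in the knockout, with a median of 0.35 and a summed signal, over the 20 measured genes, of 2278 against 2975 in the knockout. Dsp, a desmosome gene, had 191 and 329 (0.77; another probe set 0.43), Krt18, a keratin of simple epithelium, 342 and 483 (0.49), and Cdh1, the epithelial cadherin gene, 226 and 304 (0.42). Its part in the higher signal of Aldh1a3 and Bmp4 was not tested. Head mesenchyme and neural crest genes were split, 13 of 19 higher with a median of 0.07 and summed signals of 10191 and 10604. Endothelial genes had a median of 0.12 (summed signals 1822 and 2007) and erythroid genes one of -0.02 (29800 and 29764). Of 18 macrophage genes 2 were over the limit, and of 17 Hox genes, which mark hindbrain and spinal cord, 0 were. Housekeeping genes had a median of 0.05.

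**Figure D3:**
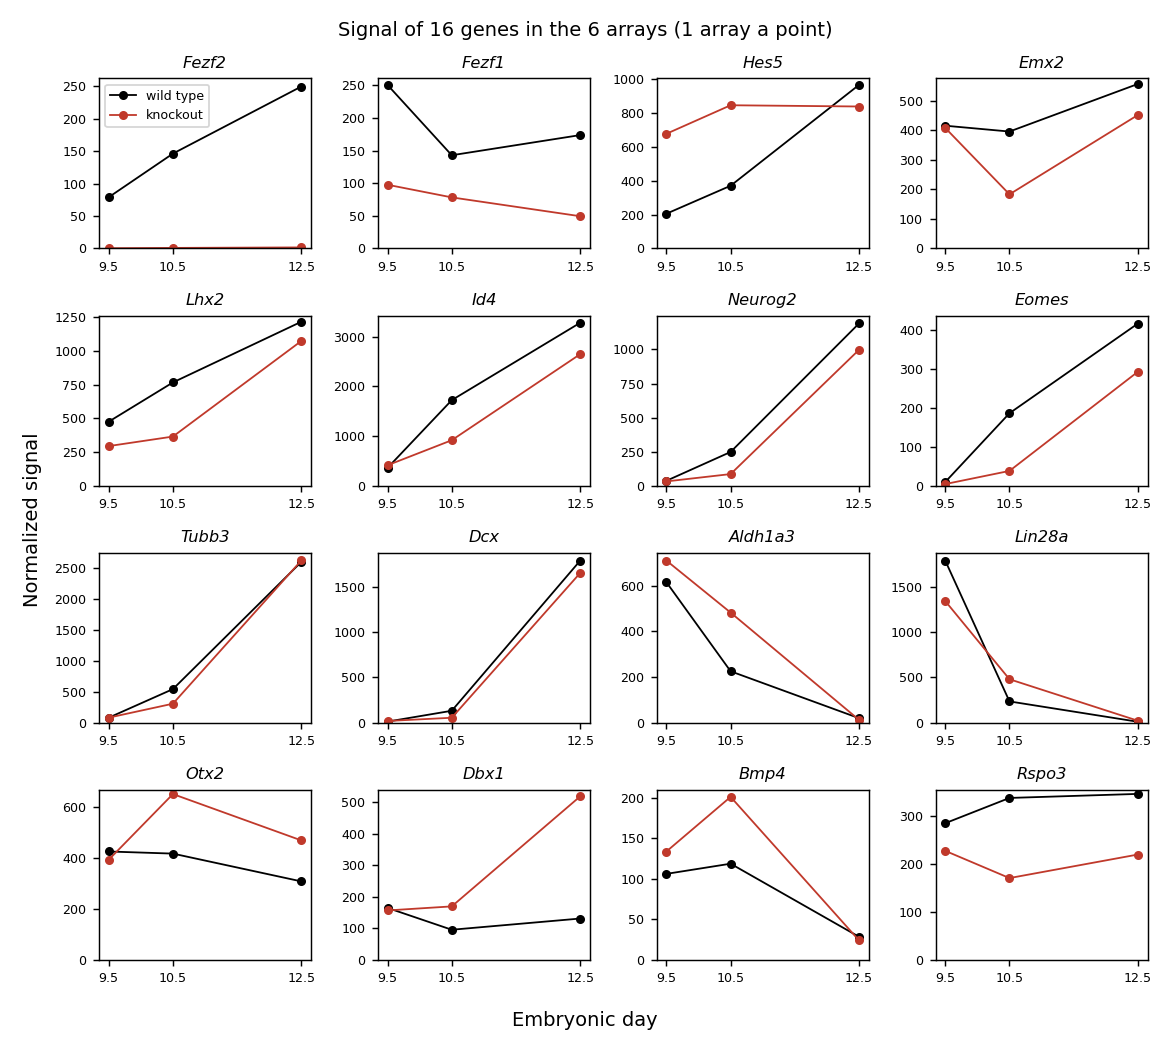
Normalized signal (vertical, linear from 0) of 16 genes against embryonic day (horizontal, 3 ages) in wild type (black) and knockout (red), 1 array a point and no error bars. At E10.5 the knockout lies below wild type for Emx2, Lhx2, Neurog2, Eomes, Tubb3 and Dcx and above it for Hes5, Aldh1a3, Lin28a, Otx2, Dbx1 and Bmp4.

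The E10.5 differences followed the direction in which genes change with age. Genes were sorted by their wild-type change from E9.5 to E12.5, which uses neither E10.5 array. The 59 genes over 8-fold brighter at E12.5 had a median difference of -0.62, and 6.78% of them were higher in the knockout. The 89 genes 4- to 8-fold brighter at E12.5 had a median of -0.32 and the 492 genes 2- to 4-fold brighter one of -0.14. The 5798 genes within 2-fold had a median of -0.01. On the other side, the 889 genes 2- to 4-fold dimmer at E12.5 had a median of 0.09, and the 154 genes over 4-fold dimmer had one of 0.23, with 81.8% higher in the knockout. Medians thus went one way from class to class, and they did so with the knockout arrays of E9.5 and E12.5 used for sorting, where the outer classes gave -0.67 and 0.23.

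The neuron lists did not make up all of these classes. Of the 59 genes over 8-fold brighter at E12.5, 21 are in the pan-neuronal, glutamatergic or Cajal-Retzius lists. The other 38, which include further genes of neurons such as Isl1 and Lhx8, had a median of -0.53, and 3 of them were higher in the knockout.

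The same relation across all genes was weak at the other ages, where the age spans were shorter. One class at E9.5 resembled E10.5: the 110 genes over 4-fold dimmer at E12.5 than at E10.5 had a median of 0.19, with 70.9% higher. The 228 genes 2- to 4-fold brighter had 0.10 with 66.2% higher, unlike at E10.5. Across genes, the difference correlated with the age change at -0.37 at E10.5, against 0.04 at E9.5 and -0.08 at E12.5, where the age change was taken from the 2 remaining wild-type arrays. Genes of one array share its scaling and are not independent, so these are descriptions. Along the line from the wild-type array of E9.5 to that of E12.5, over the 1683 genes that differ at least 2-fold between them, the wild-type array of E10.5 lay 35.6% of the way and the knockout array 25.6%. Along the line through the knockout arrays the values were 31.1% and 20.7%. Stage within the day was not recorded for the embryos of either array, so developmental stage and genotype cannot be told apart.

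**Figure D4:**
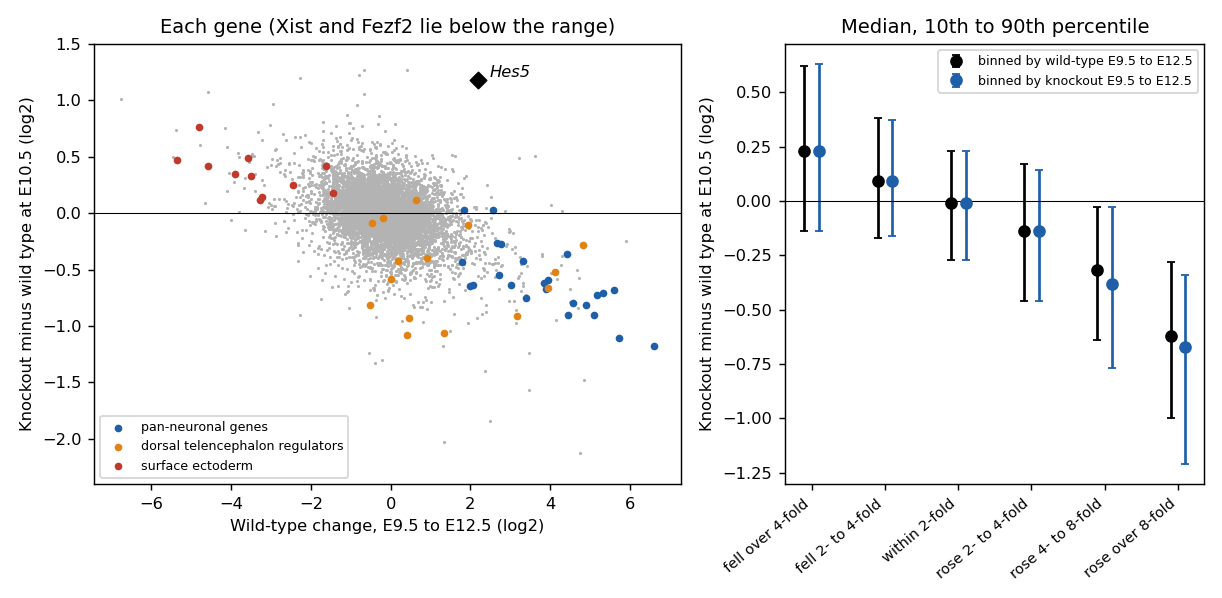
Left, knockout minus wild type at E10.5 (vertical, log2) against the wild-type change from E9.5 to E12.5 (horizontal, log2), 1 point a gene, with 3 lists coloured and Hes5 as a diamond. Right, the median and the 10th to 90th percentile of the difference in 6 classes of age change, from 0.23 in genes over 4-fold dimmer at E12.5 to -0.62 in genes over 8-fold brighter.

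Hes5 went against this relation. Of 640 genes at least 2-fold brighter at E12.5 than at E9.5 in wild type, 63 were at least 1.5-fold lower in the E10.5 knockout and 1 was at least 1.5-fold higher, and that gene was Hes5. Among the 5798 genes within 2-fold, 60 were at least 1.5-fold lower and 28 higher. Over all 7481 genes the shares were 1.79% lower and 0.909% higher. Of 1043 genes at least 2-fold dimmer at E12.5, 39 were at least 1.5-fold higher and 11 lower. Those 11 were Xist, Aldh1a1, Cbll1, Slc35a2, Tmem214, Thap4, Fcsk, Zfp503, Adi1, Ccdc80 and Top3b, and they are named after their values were seen. Xist, the RNA of the inactive X, depends on the sex of the embryos in an array, which is not given. Its place among these genes cannot be read as a change with age. The second probe sets of Cbll1, Ccdc80 and Fcsk gave 0.06, 1.23 and 0.23, in the other direction.

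The lists were also set against genes of like age change. From each gene the median difference of genes outside its list with a like wild-type age change (9 classes) was subtracted. The list median was then taken again. Pan-neuronal genes then had a median of -0.16 and the glutamatergic list one of -0.19, from -0.64 and -0.61. Genes of neurons are many among those that rise most: 21 of the 59 genes over 8-fold brighter at E12.5 are in the neuron lists. The subtraction thus takes away part of any difference in neurons. It cannot tell a difference in stage from a smaller share of neurons. Dorsal telencephalon regulators had a median of -0.30, with 12 of 16 below the genes of like age change. Without Fezf1 and Fezf2, the deleted genes, it was -0.19, with 10 of 14 below. Genes of the hem and roof plate were at -0.32, with 11 of 15 below. For Emx2, whose wild-type age change was 0.42, all genes of like change, list members included, had a median of -0.04 against its own -1.08. Thalamic, pretectal and midbrain genes had 0.24, with 0 of 8 below, and surface ectoderm genes had 0.13, with 2 of 11 below. This comparison was chosen after the data were seen.

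Where a gene has several probe sets, most lay on the same side. Among genes at least 2-fold different, all 5 lower and all 4 higher genes with another probe set over the limit had these in the same direction. At 1.5-fold this held for 33 of 38 lower and 16 of 18 higher genes, but all other probe sets were themselves past 1.5-fold in 12 and 5 of these. Over all genes with several probe sets over the limit, the differences of brightest and other probe sets correlated at 0.414. Ptprz1, a receptor phosphatase gene of radial glia, gave -1.40, -1.08 and -1.24. Some of the largest differences have no such check over the limit: Arf5, Neurog2, Rtn1, Emx2 and Lhx2 have 1 probe set each, and the other 3 probe sets of 1810014B01Rik (1.20), all under the limit, gave -0.32, -0.46 and 0.07.

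**Figure D5:**
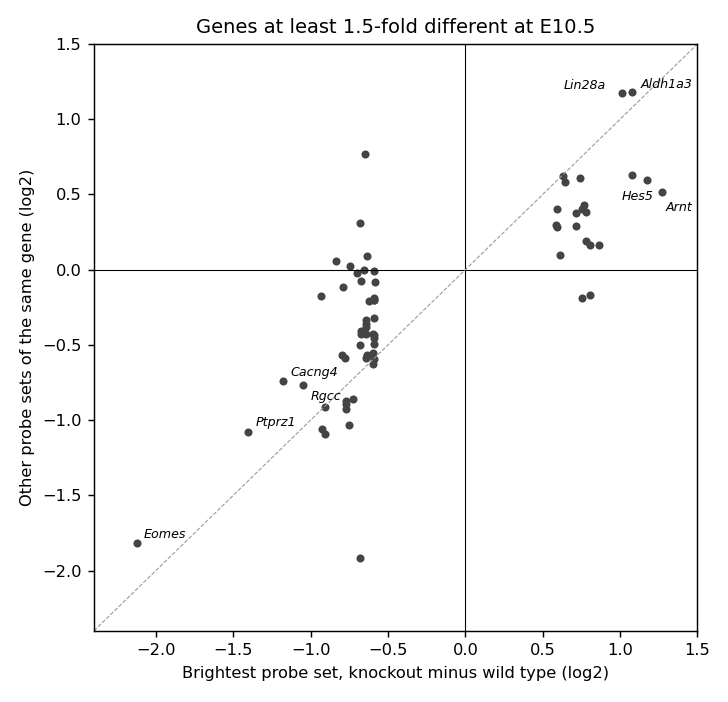
Difference of the brightest probe set (horizontal) against that of every other probe set over the limit (vertical) for 56 genes at least 1.5-fold different at E10.5, both knockout minus wild type on the log2 scale, with the line of equality dashed. Of 72 points 65 lie on the same side of 0 on both axes, and 1, that of Xist, lies outside the range drawn.

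Some genes next to the targeted loci were among those that differed, and most were not. Within 5 genes of Fezf1, 2 of 10 were at least 1.5-fold lower and 0 higher, and within 30 genes 3 of 60 and 0. Within 5 genes of Fezf2, 1 of 10 was lower and 2 higher, and within 30 genes 1 and 2 of 36. Over all 7481 genes the shares were 1.79% lower and 0.909% higher. On chromosome 6, Ptprz1 lies 1 gene, Arf5 4 genes and Rbm28 6 genes from Fezf1, counted over genes with signal over the limit in the gene order of GRCm38.p6. Arf5, a small GTPase gene, had 244 in wild type and 63.4 in the knockout (-1.84) and was also lower at E9.5 (-1.46) and E12.5 (-0.97). Rbm28 had 425 and 269 (-0.65), but its second probe set gave 0.77. On chromosome 14, 3830406C13Rik lies 1 gene, Ptprg 2 genes and Rarb 5 genes from Fezf2. The first had 75.9 and 192 (1.27), with 1.59 and 1.39 at the other ages. Ptprg, a receptor phosphatase gene, had 387 and 239 (-0.68), with -0.29 at E9.5 and 0.35 at E12.5. Another Ptprg probe set, with 102 and 22.2 at E10.5, gave -1.92 there, -2.36 at E9.5 and -1.78 at E12.5. The remaining 2 gave -0.50 and -0.33 at E10.5. The strain of the DNA around either knockout allele is not given in the sources used here, and its part in these differences was not tested.

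Few other E10.5 differences were as large at both other ages. Of the 68 genes at least 1.5-fold higher, 4 were so at E9.5 and E12.5 as well: 3830406C13Rik, A2m, Ano1 and Zdhhc12. Of the 134 lower genes, 5 were: Fezf1, Fezf2, Arf5, Rbm28 and Abcb8. By direction alone, 39 of the 68 were higher at E9.5 and 35 at E12.5. Of the 134, 69 were lower at E9.5 and 76 at E12.5. The median of all genes was 0.01 at both of these ages. These counts take any signal at the other ages, where some of the genes were dim. Over all genes with signal over 100 at the age in question, 77 of 7487 were at least 1.5-fold higher and 56 lower at E9.5. At E12.5 the counts were 79 and 84 of 7251. Some genes had signal over 100 at another age as well and differed there at least 1.5-fold in the same direction. Among them were Hes5, higher at E9.5 too, and Lhx2, lower at E9.5 too (475 and 293). Dbx1 (131 and 519) and Otx2 (307 and 468) were higher at E12.5 too. Eomes at E9.5 (9.26 and 3.93) and Pax3 (6.18 and 28.7) and Lin28a (10 and 21.4) at E12.5 were far under the limit.

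The remaining 2-fold differences were mixed. Higher were also Arnt, a bHLH-PAS partner gene (1.27), the ribosomal protein gene Rpl27a (1.22) and Tmem69 (1.06), whose second probe set gave -0.19. Lower were also Mir9-3hg (-1.56), the host transcript of a neural microRNA, Pantr1 (-1.24), a noncoding transcript next to Pou3f3, Acta2, the smooth muscle actin gene (-1.33), Clip4 (-1.30; second probe set 0.35), the carboxylesterase gene Ces5a (-2.02), the pigment cell gene Pmel (-1.24), Cacng4 (-1.18; another probe set -0.74) and Rgcc (-1.05; another probe set -0.77).

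Sex-linked transcripts and brightness differed as well between the E10.5 arrays. Xist, the RNA of the inactive X, had 573 in wild type and 11.7 in the knockout, and 3 Y-linked genes over the limit had a median of 0.52. Over 260 X-linked genes the median difference was 0.01. The deposited trimmed mean was 74.3 in wild type and 91.2 in the knockout, and the ratio of 3′ to 5′ Actb probe sets, a sign of RNA integrity and labelling, was 1.84 and 1.59. The part of these in the gene differences was not tested.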

How the data were processed

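Total RNA of 6 samples was measured on 1 array each, and the labels' genotype and age fields define the groups. The authors deposited linear intensity per probe set from MAS5, per the submitters' processing notes. Neither a software version nor a scaling target nor detection calls are given there, and probe-level correction could not be redone.

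The 6 arrays were quantile normalized together, since deposited trimmed means differed between arrays, and log2(signal + 6.50) was taken, where 6.50 is the lower quartile of the deposited values. Of 45101 probe sets, 34958 name 1 gene in the supplied platform annotation, 932 several and 9211 none that is listed. For each gene the probe set with the highest mean over the 6 arrays was used. The RefSeq table of GRCm38.p6 served for names, gene order and promoter sequence. The calculation, in Python 3.11.15 with numpy 2.4.6 and pandas 2.3.3, was tested on simulated data.

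With 1 array a group no test was made. Named genes are the targeted genes and Hes5, up to 15 genes a direction at least 2-fold different over the limit, and up to 8 members a list, chosen by size of difference. Further members are named for their role, after their values were seen. The 28 gene lists and the comparison itself were chosen with earlier results of these data known, and some genes are in several lists. Alternatives covered scaling, pseudocount, choice of probe set, signal limit and fold.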

Additional observations from a re-analysis of the deposited data

Results flagged for a closer look

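Ces5a was singled out because it differed at least 2-fold in opposite directions at 2 ages. It was lower in the knockout at E10.5, with a wild-type signal of 144 against 30.6 in the knockout (-2.02), and higher at E9.5, with 53.0 and 157 (1.46), while at E12.5 it had 143 and 147. Its other probe sets were far under the signal limit, and the second gave -1.59 at E10.5 and 0.11 at E9.5. The glutamatergic neurogenesis list was singled out because its medians had opposite directions, -0.61 at E10.5 and 0.35 at E9.5 over its 10 genes. So was the lens and retina list, with -0.23 at E10.5 and 0.21 at E9.5 over 3 genes. For Ces5a the signal limit held at both ages, but for the lists it held at E10.5 only. Some glutamatergic members, such as Eomes, were far under it at E9.5. With 1 pair of arrays at each age, none of these differences between ages was tested.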

How the results depend on the processing

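Of 251 list and age-class medians recomputed under 9 alternatives, relative to the median of all genes, 235 moved by less than the spread between probe sets, and of 968 values of 112 named genes 721 did. The 2-fold counts, 8 higher and 18 lower, were 27 and 6 on the values as deposited, which move the median of all genes to 0.30, 2 and 9 with a pseudocount of 50, 5 and 9 with second-brightest probe sets, 180 and 223 with the median of all values as signal limit, and 68 and 134 at 1.5-fold. The first alternative turned the share of higher calls from 30.8% to 81.8%, and the share was 40% with the mean of both arrays over 100 and 44.7% with the median as limit. With second-brightest probe sets, which fewer genes have, the medians were -0.27 for dorsal regulators, -0.33 for the glutamatergic list, -0.09 for hem and roof plate and -0.05, reversed, for thalamic, pretectal and midbrain genes. The sex-linked list reversed to -1.85 with the mean of all probe sets. Among named genes the second probe set reversed 1810014B01Rik (-0.32), Cbll1 (0.06), Ccdc80 (1.23), Clip4 (0.35), Fcsk (0.23), Rbm28 (0.77), Tmem69 (-0.19) and Wnt8b (0.21), and the mean of all probe sets reversed Ccdc80 (0.29), Fcsk (0.13) and Rbm28 (0.06); the causes were not tested. No paired analysis was possible because each genotype has 1 array at this age. Single arrays and dim signal limit the precision.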

Other observations

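Some gene groups lie outside the comparisons above. Among placode genes Eya1, a transcriptional coactivator gene of the sensory placodes, had a wild-type signal of 393 against 591 in the knockout at E10.5 (0.58; other probe sets 0.76 and 0.94), and Six4, a homeobox gene of the same tissue, had 175 and 224 (0.35; brighter other probe sets 0.36 and 0.15). Eya4 had 155 and 88.1 (-0.77), with a second probe set at 0.13. The list of olfactory and other placodes had a median of 0.10, with 5 of 8 members over the limit higher.

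Hypothalamic, eye field and prethalamic genes had a median of 0.01, 3 of 6 over the limit being higher. Foxd1, a forkhead gene, had 350 and 236 (-0.56), while Tbx3 had 94.8 and 152 (0.64) and Six6, an eye field gene, 87.2 and 126 (0.50). Tbx3 and Six6 passed the limit through the knockout array alone. Over all 18 measured members of the list 9 were higher, with a median of -0.05. Among Wnt antagonists and readouts, with a median of -0.07 over 9 genes, Apcdd1, which encodes a membrane-bound Wnt inhibitor, had 781 and 516 (-0.59), and its other probe sets over the limit gave -0.20, -0.45, -0.59 and -0.50. Sfrp1, a secreted Wnt antagonist gene, had 713 and 565 (-0.33).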
